A study of Mus musculus with 6 samples.

Results

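The genes described here are 52 genes of mitosis and cytokinesis, a hand-picked list, found by Ensembl ID among the 14450 genes that all 6 count tables of a single-cell RNA-seq study of mouse bladder mucosa list. All 52 were found. They were taken in 6 groups by role, with 10 genes of mitotic entry, 19 of the spindle and kinetochore, 4 of mitotic exit, 7 of chromosome structure, 4 of the chromosomal passenger complex and its partners, and 8 of cytokinesis. The study used wild type C57BL/6 mice aged 8 weeks, and compared healthy bladders with bladders injured by cyclophosphamide (CPP), a drug whose breakdown product acrolein injures the bladder lining. Acute libraries were made 48 h after a single CPP injection, and chronic libraries came from mice given 4 rounds of CPP over 11 days. By the paper's methods each chronic injection held a lower dose than the acute one. Chronic bladders, too, were taken 48 h after the last injection. Acute and chronic libraries thus differ in dose and in number of injections together. Each condition had 2 libraries from the peeled mucosal layer, prepared as droplet-based 3' single-cell libraries, in which a unique molecular identifier (UMI) marks each mRNA copy. Animals of both sexes were used in each group, more mice than libraries were used in each condition, how many stood behind each single library is not given in the sources used here, and a p-value measures the spread between these libraries.

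Mitosis genes are switched on late in the cell cycle, after most genes of DNA replication. Cyclin B and Cdk1 bring cells into mitosis, kinetochores and motor proteins align the chromosomes on the spindle, the anaphase-promoting complex with Cdc20 and Ube2c drives exit, and Prc1, Kif23, Ect2, Racgap1 and Anln build the midzone and the contractile ring that part the daughter cells. The urothelium is a layered epithelium with basal cells next to the stroma, intermediate cells above them and large superficial (umbrella) cells facing the urine, which are often binucleate or polyploid. It divides rarely in health and replaces lost cells after injury.

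Promoters of late cell cycle genes often hold a cell cycle homology region (CHR, letters TTTGAA) next to the start of transcription and CCAAT boxes further upstream. Promoter sequences (RefSeq, GRCm38.p6, 250 bases before to 50 bases after the start) were at hand for 44 of the 52 genes, and both strands were searched for TTTGAA and CCAAT, which can share at most 1 base with each other. TTTGAA was found in 32 of the 44 genes (72.7%), against 17.9% of all 32851 promoters of this length. CCAAT stood in 33 genes (75.0%), against 37.4% of all promoters, and both stood in 28 genes (63.6%), against 6.95%. These are matches of letters, not measured binding. The set printed here covers all roles but the passenger group and holds genes named in the class comparisons. Its 7 stretches are those of Cdk1, Cenpf, Cdc20, Ube2c, Top2a, Prc1 and Anln. Each runs 5' to 3' on the gene's own strand from 150 bases before to 30 bases after the start, with TTTGAA and CCAAT, or their reverse complements, in capitals.
Cdk1 (chr10:69352883-69353062, minus strand): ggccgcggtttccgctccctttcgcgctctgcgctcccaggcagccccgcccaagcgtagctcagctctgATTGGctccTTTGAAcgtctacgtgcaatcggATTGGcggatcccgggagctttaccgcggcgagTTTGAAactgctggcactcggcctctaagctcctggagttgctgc
Cenpf (chr1:189688057-189688236, minus strand): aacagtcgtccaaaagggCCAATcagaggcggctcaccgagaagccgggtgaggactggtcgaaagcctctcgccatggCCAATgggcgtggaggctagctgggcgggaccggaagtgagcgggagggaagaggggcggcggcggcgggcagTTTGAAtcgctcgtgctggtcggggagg
Cdc20 (chr4:118437314-118437493, minus strand): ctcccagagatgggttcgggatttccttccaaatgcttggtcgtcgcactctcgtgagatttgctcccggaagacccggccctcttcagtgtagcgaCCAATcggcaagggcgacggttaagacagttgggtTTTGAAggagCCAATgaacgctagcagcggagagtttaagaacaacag
Ube2c (chr2:164769779-164769958, plus strand): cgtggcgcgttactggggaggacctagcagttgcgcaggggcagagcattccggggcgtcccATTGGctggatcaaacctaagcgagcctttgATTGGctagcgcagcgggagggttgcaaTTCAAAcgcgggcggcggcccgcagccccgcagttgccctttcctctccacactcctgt
Top2a (chr11:99024160-99024339, minus strand): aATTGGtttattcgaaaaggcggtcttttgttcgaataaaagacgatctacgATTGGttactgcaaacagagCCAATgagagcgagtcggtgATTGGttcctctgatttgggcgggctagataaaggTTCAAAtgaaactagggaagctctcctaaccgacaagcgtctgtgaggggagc
Prc1 (chr7:80294301-80294480, plus strand): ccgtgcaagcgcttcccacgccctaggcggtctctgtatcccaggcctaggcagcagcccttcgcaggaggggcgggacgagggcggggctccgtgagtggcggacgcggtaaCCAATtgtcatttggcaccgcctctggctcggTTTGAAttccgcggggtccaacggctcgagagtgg
Anln (chr9:22389177-22389356, minus strand): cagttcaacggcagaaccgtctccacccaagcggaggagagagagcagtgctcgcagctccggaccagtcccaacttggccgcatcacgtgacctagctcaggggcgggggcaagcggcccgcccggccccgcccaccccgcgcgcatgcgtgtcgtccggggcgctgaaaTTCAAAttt
All 7 stretches hold TTTGAA, where 32 of the 44 genes did, and of these stretches only that of Anln lacks CCAAT. Neither letter string was found in the windows of Pttg1, Knstrn, Mad2l1, Nuf2, Nusap1, Tacc3 and Birc5.

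Cells were sorted into urothelial, mesenchymal and smaller classes by clusters made without the 52 genes, without other cell cycle genes (183 in all) and without 219 genes that moved with them. Urothelial cells in sub-clusters rich in superficial markers (Krt20, Acer2, Clu, Upk1a, Upk2, Upk3a) are called superficial-marker cells, and the others were called basal or intermediate by the higher of a basal and a luminal score. These markers were used to define the classes, so their levels describe the classes and do not test them. Krt5, a basal keratin, stood at 1092 counts-per-million (CPM, the UMIs of a gene scaled to all UMIs of the class) in basal, 526 in intermediate and 134 in superficial-marker cells, and Upk1a, a uroplakin of the umbrella cell surface, at 1197, 3052 and 6947. The superficial-marker class rests on 2 sub-clusters, of which the larger, with most of the class in every library, had Pclaf, Cdca3 and Birc5 beside Psca and Acer2 among its leading genes, although none of the cell cycle genes among these had been used to cluster. A further sub-cluster of 710 cells, 90.1% of them basal, had Ube2c, Cenpa, Top2a, Prc1, Birc5 and Mki67 among its leading genes, with 4 and 1 cells in the healthy, 404 and 158 in the acute and 65 and 78 in the chronic libraries. The libraries held 54604109 to 111985678 UMIs and 5348 to 15062 barcodes. Called doublets (4.28% to 11.1% of cells) and a cluster rich in them were left out. Pairs of libraries shared 36 to 229 barcodes. Mesenchymal cells also carried urothelial RNA (Upk1a at 660 CPM), and its part in the low levels of the members there was not tested.

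The summed level of the 52 genes was highest after acute injury in all urothelial classes and in stroma (plot of the summed level by class). It is the CPM added up over the 52 genes, so that more dividing cells and more RNA of these genes per dividing cell cannot be told apart. In basal cells it was 1093 and 433 in the healthy libraries, 3894 and 1655 in the acute libraries and 1025 and 811 in the chronic libraries. Both acute libraries stood above all others, and the healthy and chronic libraries overlapped. In superficial-marker cells it was 559 and 490 in health, 2499 and 1518 after acute injury and 1084 and 1251 after chronic injury, so that the 3 conditions did not overlap and the chronic libraries lay between the others. Intermediate cells held less, with 359 and 337 in health, 828 and 650 after acute and 475 and 449 after chronic injury. There too the conditions did not overlap and the chronic libraries lay between the others. In mesenchymal cells the level was 648 and 528, 1080 and 789, and 602 and 602 in the same order, so that the acute libraries were again the highest and the chronic ones lay within the healthy range.

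**Figure D1:**
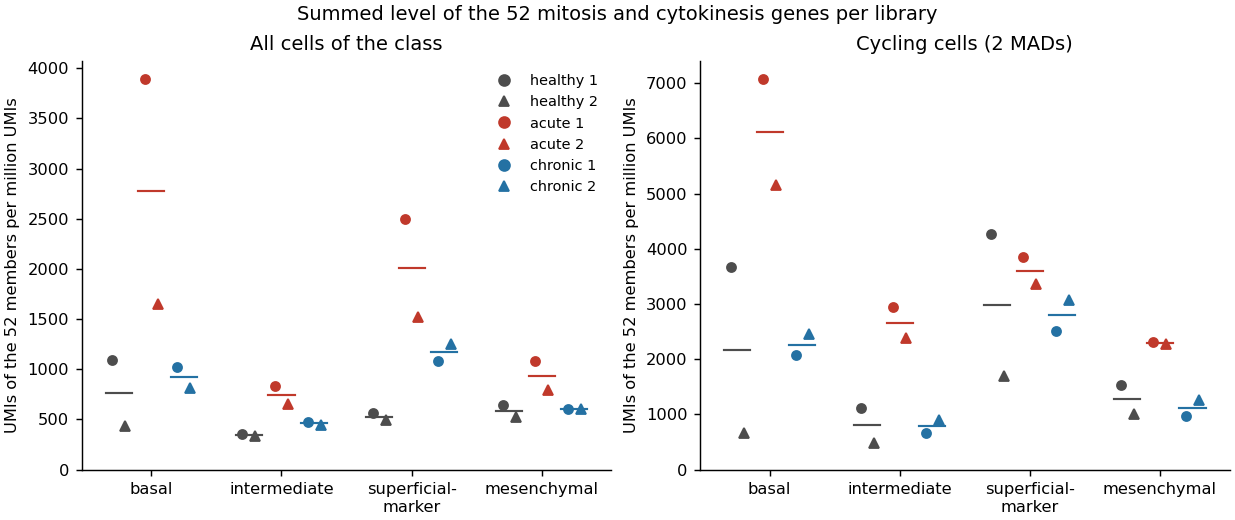
CPM (UMIs scaled to the UMIs of the class) summed over the 52 mitosis and cytokinesis genes, by class, in all cells of the class (left) and in cells called cycling (right), with 1 point per library (color for the condition, shape for the replicate) and a line at the mean of the 2 libraries. In all cells both acute libraries (3894 and 1655 in basal, 2499 and 1518 in superficial-marker cells) lie above the healthy and chronic libraries of the same class, whereas among cycling superficial-marker cells the highest library is a healthy one (4270).

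Taken by role, the chronic libraries lay above health in superficial-marker and in part in intermediate cells, but not in basal cells. In superficial-marker cells all 6 roles were higher in both chronic than in both healthy libraries. The spindle and kinetochore genes of these cells stood at 143 and 127 CPM in health, 646 and 379 after acute and 333 and 469 after chronic injury. Cenpf, whose values are given below, made up a larger part of the healthy and chronic sums of this role than of the acute ones. The cytokinesis genes stood at 33.3 and 15.9, 105 and 69.0, and 42.9 and 40.8. In intermediate cells the entry, spindle and kinetochore, exit and passenger genes were higher in both chronic than in both healthy libraries, and the chromosome and cytokinesis genes overlapped. In basal cells none of the 6 roles separated chronic from healthy libraries. The entry genes stood there at 195 and 89.4 CPM in health, 702 and 282 after acute and 194 and 144 after chronic injury. The spindle and kinetochore genes stood at 211 and 57.0, 830 and 310, and 194 and 157, the chromosome genes at 352 and 170, 1078 and 539, and 259 and 265, and the cytokinesis genes at 92.7 and 25.4, 237 and 106, and 59.0 and 35.8. After chronic injury 2 of the 8 cytokinesis genes had a positive log2 change in basal cells, with a median of -0.12, where the median over all 52 genes was 0.40 and over all genes tested -0.01. No member was called in the chronic comparisons by the edgeR quasi-likelihood test, so these values by role are descriptions.

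Counted by cells, the same order was seen in superficial-marker cells and in part in intermediate cells. A cell was counted when at least 5 of the 52 genes had a UMI after every cell was thinned to 3000 UMIs, and cells with fewer UMIs were left out. In superficial-marker cells 1.95% (95% Wilson interval 0.990% to 3.79%) and 2.14% of cells passed in health, 40.7% (37.6% to 43.9%) and 18.8% after acute injury, and 12.8% and 13.4% after chronic injury. The unthinned shares were 13.8% and 7.41%, 65.2% and 46.1%, and 23.5% and 32.6%. Basal cells gave 4.71% and 0.644%, 31.5% and 9.17%, and 11.0% and 5.93%, and the unthinned shares 6.07% and 0.924%, 33.6% and 14.9%, and 6.58% and 6.45%. After thinning the lower acute library lay between the chronic ones, and unthinned both acute libraries were above them. In intermediate cells 0.885% and 0.187% passed after thinning in health, 5.11% and 2.40% after acute and 1.04% and 1.08% after chronic injury. Unthinned, the healthy (3.405% and 1.331%) and chronic (2.43% and 3.694%) intermediate shares overlapped. The acute libraries differed from each other by more than counting error in superficial-marker, basal and intermediate cells. The healthy libraries did so in basal and intermediate cells, and the chronic ones in basal cells. Median depth was 6955 to 12105 UMIs in superficial-marker and 2908 to 5033 UMIs in basal cells, and thinning left out 1 to 64 superficial-marker and 70 to 448 basal cells per library, with 373 of 821 basal cells left in chronic replicate 1. Among cells not called cycling 0.064% to 2.34% of basal and 0.0% to 4.97% of superficial-marker cells passed after thinning, which serves as the level that stray RNA and missed cells give. The intervals cover counting error only.

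**Figure D2:**
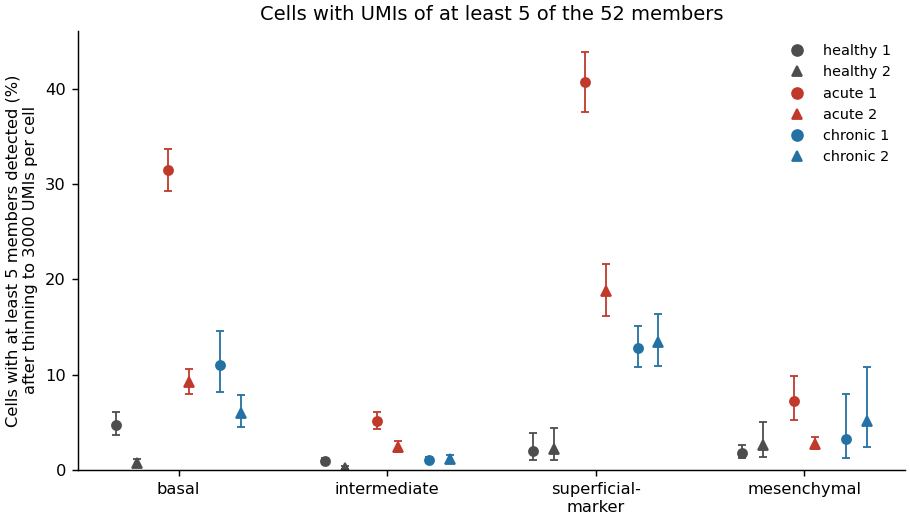
Percent of cells with UMIs of at least 5 of the 52 genes after thinning to 3000 UMIs, by class and library, with 95% Wilson intervals for counting error. Superficial-marker cells reach 40.7% and 18.8% in the acute libraries, against 1.95% and 2.14% in health.

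Tested gene by gene, the acute rise passed the threshold in superficial-marker cells. There 23 of the 52 genes were higher after acute injury than in health by the edgeR quasi-likelihood test (Benjamini-Hochberg adjusted p below 0.05 over all genes), where 0.963% of the 11736 genes tested were called higher, and none was lower. The median log2 change of the 52 genes was 2.26, against -0.01 over all genes tested, and 51 of the 52 were positive. In 50 of the 52 both acute libraries stood above both healthy ones, against 22.1% of all genes. Called genes came from every role, with 3 of 10 entry, 8 of 19 spindle and kinetochore, 2 of 4 exit, 5 of 7 chromosome, 3 of 4 passenger and 2 of 8 cytokinesis genes. The count rests on the healthy libraries, since it was 0 without healthy replicate 1 and 2 without healthy replicate 2, and it was 10 and 13 without chronic replicate 2 and 1, whose libraries share the fit. It was 8 with clusters made without integration, and 32 with DESeq2 (1.82% of all genes higher).

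The 3 largest rises were those of Spc24, Ube2c and Nusap1. Spc24, a subunit of the Ndc80 complex that ties kinetochores to microtubules, stood at 2.35 and 1.01 CPM in healthy, 60.0 and 31.3 in acute and 18.7 and 25.2 in chronic superficial-marker cells. Its acute log2 change was 4.58 ± 0.45 (SE, adjusted p = 0.0097), from 11 and 3 healthy UMIs, and the conditions did not overlap. Ube2c, the ubiquitin-conjugating enzyme of the anaphase-promoting complex, stood at 19.0 and 13.9, 269 and 111, and 52.6 and 86.0 (3.44 ± 0.44, adjusted p = 0.0156). Nusap1, which bundles spindle microtubules around the chromosomes, went from 2.78 and 2.03 to 35.8 and 19.5 (3.42 ± 0.47, adjusted p = 0.0169) and was at 18.0 and 8.76 in the chronic libraries. For all 3 genes both chronic libraries lay between the healthy and the acute ones. With clusters made without integration Ube2c (adjusted p = 0.053) and Nusap1 (adjusted p = 0.066) did not pass.

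Called genes of the chromosome and entry groups rose as well. Top2a, the topoisomerase that untangles sister chromatids, stood at 7.48 and 6.09 CPM in health, 70.6 and 45.5 after acute and 30.7 and 26.4 after chronic injury (acute log2 change 3.01 ± 0.27, adjusted p = 0.0083). Mki67, which coats mitotic chromosomes and is the usual proliferation marker, stood at 6.41 and 5.41, 36.3 and 23.6, and 18.1 and 12.4 (2.26 ± 0.31, adjusted p = 0.0167). Cdk1, the mitotic kinase, stood at 4.49 and 5.41, 43.6 and 21.3, and 15.5 and 19.1 (2.65 ± 0.37, adjusted p = 0.0187). Each of these 3 separated the conditions without overlap. Hmgb2, a chromatin protein, rose from 72.0 and 66.9 to 229 and 208 (1.60 ± 0.20, adjusted p = 0.0153) and Birc5 (survivin, of the passenger complex) from 17.5 and 6.42 to 130 and 60.4 (2.87 ± 0.46, adjusted p = 0.0287). Aurkb, the passenger kinase, rose from 1.92 and 1.01 to 14.0 and 10.9 (2.95 ± 0.40, adjusted p = 0.0166).

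Of the cytokinesis genes, 2 were called. Prc1, which crosslinks the midzone microtubules, rose from 4.27 and 2.37 CPM to 24.8 and 19.0 (2.61 ± 0.33, adjusted p = 0.0156), and the motor Kif4 was the other cytokinesis gene called, with a log2 change of 2.73. Anln, the actin-binding scaffold of the contractile ring, stood at 2.14 and 0.676 in health, 7.01 and 2.32 after acute and 3.09 and 2.50 after chronic injury, and its change of 1.55 did not pass the test (adjusted p = 0.48). Racgap1, a subunit of centralspindlin, changed by 2.67 (adjusted p = 0.060) and its partner Kif23 by 0.57, with 16.0 and 7.44 in health and 20.3 and 16.7 after acute injury. Cdc20, the activator of the anaphase-promoting complex, stood at 4.06 and 3.04, 17.2 and 7.17, and 8.16 and 5.94 (acute change 1.68, adjusted p = 0.18). Cenpf, a large kinetochore and nuclear matrix protein, stood at 69.6 and 74.7 in health, 138 and 100 after acute and 142 and 290 after chronic injury, so that its highest value was in a chronic library. Pttg1 (securin) was the 1 member with a negative change (-0.18), with overlapping libraries.

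**Figure D3:**
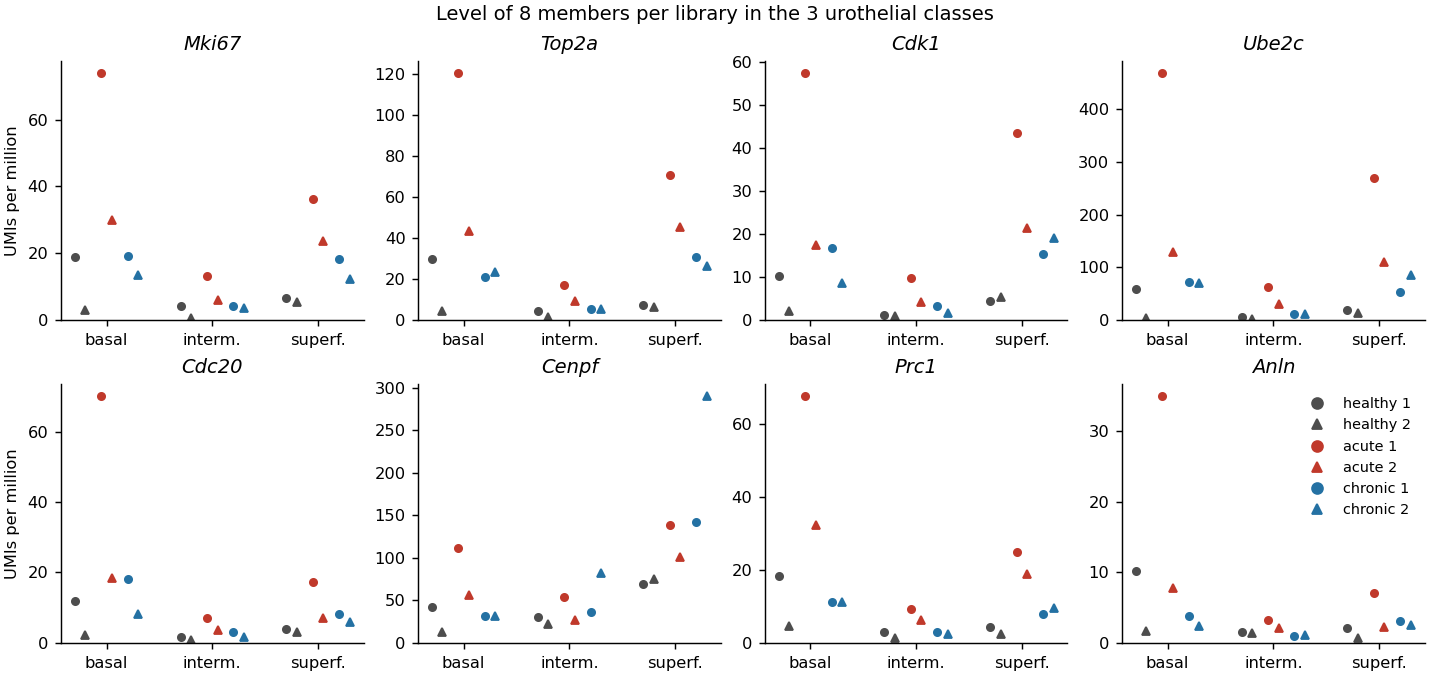
CPM of 8 members (Mki67, Top2a, Cdk1, Ube2c, Cdc20, Cenpf, Prc1 and Anln) in basal, intermediate and superficial-marker cells, with 1 point per library. Both acute libraries lie above both healthy ones for Top2a (70.6 and 45.5 against 7.48 and 6.09 in superficial-marker cells), while Cenpf is highest in a chronic library of superficial-marker cells (290).

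In the other classes the changes had the same sign in nearly all members but did not pass the threshold. In basal cells 0 of the 52 genes were called after acute injury by edgeR (0.0% of 11998 genes), with 43 at an unadjusted p below 0.05 (586 of all 11998 genes) and 11 called by DESeq2 (0.525% of genes higher). All 52 were positive, with a median log2 change of 2.15, and 46 did not overlap, against 15.6% of all genes. In basal cells Ube2c stood at 58.2 and 3.40 CPM in health, 468 and 128 after acute and 71.3 and 69.2 after chronic injury, and Top2a at 29.7 and 4.15, 120 and 43.6, and 21.1 and 23.3. The healthy basal libraries thus lay farther apart from each other than the chronic ones did. In intermediate cells 0 of 51 were called (38 at an unadjusted p below 0.05, as were 405 of all 13165 genes, and 14 by DESeq2, with 0.289% of genes higher), the median was 1.77 and 46 did not overlap, against 13.7%. Over all urothelial cells edgeR called 0 of the 52 (0.00724% of genes were called higher, 1 gene), 49 had an unadjusted p below 0.05 (849 of all 13803 genes), DESeq2 called 43 (1.88% of genes higher), and all 52 were positive with a median of 2.45. The largest were Ube2c (3.94), Spc24 (3.49), Spc25 (3.37) and Kif4 (3.35), the smallest Pttg1 (0.27), Gtse1 (0.38) and Kif23 (0.63). These 4 tests share libraries, and the differences between classes are tested separately.

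In stroma, 40 of the 52 genes had enough counts to be tested and 0 were called after either injury by edgeR or DESeq2, with 9 at an unadjusted p below 0.05 after acute and 1 after chronic injury (238 and 583 of all 11876 genes). After acute injury 39 of 40 were positive with a median log2 change of 0.81, and 26 did not overlap, against 13.3% of all genes. Top2a in mesenchymal cells stood at 13.2 and 6.27 CPM in health, 31.8 and 15.7 after acute and 9.28 and 11.1 after chronic injury. The chronic median was -0.02, with 7 genes higher and 5 lower without overlap, where 20.8% of all genes were higher and 1730 of 11876 were lower.

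After chronic injury no urothelial class had a member called by edgeR. In superficial-marker cells 31 of 52 had an unadjusted p below 0.05 (1014 of all 11736 genes) and DESeq2 called 12 (0.741% of genes higher, against 0.017% by edgeR). There 51 were positive, the median log2 change was 1.23 and 43 did not overlap, against 23.0%. In basal cells the chronic median was 0.40 and 7 genes did not overlap, against 15.5%, and in intermediate cells the median was 0.58 and 27 of 51 did not overlap, against 16.9%. An unadjusted p below 0.05 was found for 1 basal and 7 intermediate members (543 of 11998 and 615 of 13165 genes), and DESeq2 called none in either (0.183% and 0.266% of genes higher). Acute over chronic, the median change was 1.04 in superficial-marker, 1.74 in basal and 1.17 in intermediate cells, with 0 genes called by edgeR and 1, 0 and 0 by DESeq2 (0.00852%, 0.0% and 0.0076% of genes higher). At an unadjusted p below 0.05 there were 34, 31 and 27, against 758, 533 and 591 of all genes.

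More members were called between the classes, tested within libraries over all 3 conditions. This test rests on more sums than the injury tests, so the numbers called are not compared between them. Of the 52 genes 49 were higher in basal than in intermediate cells and 48 were higher in superficial-marker than in intermediate cells, where 22.8% and 25.6% of all 12729 genes were called higher. The median log2 differences were 1.99 and 1.70, and none was lower in either. Cenpe, the kinesin that moves chromosomes to the spindle equator, Ndc80, of the kinetochore, and Cdc20 had the largest basal over intermediate differences, of 2.83 ± 0.19, 2.61 ± 0.37 and 2.56 ± 0.19. Cdca3, an adaptor for degradation of the entry inhibitor Wee1, Cdk1 and Nuf2, of the Ndc80 complex, had the largest superficial-marker over intermediate differences, of 2.49 ± 0.20, 2.44 ± 0.20 and 2.30 ± 0.23. Cenpf, Pttg1 and Gtse1 did not pass in the first comparison, and Pttg1, Kif23, Hmgb2 and Anln did not pass in the second. In 45 genes basal cells were above intermediate cells in 6 of 6 libraries (27.2% of all genes), and in 39 genes superficial-marker cells were (18.9%).

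Basal and superficial-marker cells were compared in the same way. Of the 52 genes 13 were higher in basal and 4 in superficial-marker cells, where 33.2% and 30.6% of all genes were called. Members were thus called less often than genes at large, and their median log2 difference was 0.23 (0.10 with DESeq2). Those higher in basal cells included Anln (1.54 ± 0.31, adjusted p = 0.00023), Cdc20 (1.31 ± 0.19, adjusted p = 6.0e-06), Hmgb2 (1.03 ± 0.15, adjusted p = 3.8e-06), Prc1 (0.94), Kif23 (0.91) and Ect2 (0.76), the exchange factor that activates RhoA at the cleavage site, and so 4 of the 8 cytokinesis genes. Those higher in superficial-marker cells were Cenpf (-1.52 ± 0.27, adjusted p = 5.6e-05), Cdca3 (-0.62), Spc25 (-0.61) and Cks1b (-0.50), a Cdk-binding subunit. In 6 of 6 libraries 7 members were higher and 1 was lower in basal cells, against 3844 and 2440 of all 12729 genes. Anln stood at 10.1 and 1.70 CPM in healthy, 34.9 and 7.76 in acute and 3.83 and 2.46 in chronic basal cells. In superficial-marker cells it stood at 2.14 and 0.676, 7.01 and 2.32, and 3.09 and 2.50, below the basal value in 5 of 6 libraries. Genes of DNA replication, the 43 S-phase score genes, went the other way, with 3 higher in basal and 22 higher in superficial-marker cells and a median of -0.45.

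The members were also compared among cells called cycling. Cells were called cycling when an S or a G2/M score, built from score genes that are no members, lay more than 2 median absolute deviations (MADs) above the median of all cells. That gave 215 to 876 basal, 373 to 1628 intermediate, 26 to 485 superficial-marker and 39 to 844 mesenchymal cells per library, with 26 and 42 superficial-marker cells in health. In them the 52 genes summed to 3675 and 659 CPM in healthy, 7073 and 5160 in acute and 2075 and 2448 in chronic basal cells. Cycling intermediate cells had 1121 and 486, 2944 and 2379, and 669 and 897, and cycling superficial-marker cells had 4270 and 1691, 3854 and 3355, and 2515 and 3074. Cycling mesenchymal cells had 1538 and 1013, 2306 and 2267, and 964 and 1253. The healthy libraries were far apart in each urothelial class, and both acute libraries were the highest in basal, intermediate and mesenchymal cells. In superficial-marker cells 1 healthy library, of 26 cells, was above them.

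Members differed in how far cycling and other cells lay apart. Top2a in basal cells stood at 13.1 to 227 CPM in cells called cycling and at 1.63 to 7.15 in the others, over the 6 libraries, and the ranges did not overlap. Pttg1 stood at 64.1 to 153 in cycling and at 44.0 to 129 in other basal cells, with ranges that overlapped. Kif23 was at 11.7 to 72.1 in cycling and 5.94 to 26.7 in other basal cells. In superficial-marker cells Cenpf was at 147 to 341 in cycling and 55.9 to 272 in other cells, so that Cenpf RNA was also common in cells with low cycle scores there.

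Among cycling cells, 51 of 52 genes were higher in basal than in intermediate cells (16.0% of all 10676 genes, median 1.46) and 46 were higher in superficial-marker than in intermediate cells (22.3%, median 1.16), with Pttg1 lower (-0.56), although at 4 MADs 3 were higher and 11 lower. Between basal and superficial-marker cycling cells 12 genes were higher and 4 lower, where 28.2% and 26.4% of all genes were called, with a median of 0.27. DESeq2 called 5 higher and 6 lower (26.7% and 23.9% of all genes) and gave a median of -0.07, so the median turned sign. By edgeR the largest were Anln (1.81 ± 0.26, adjusted p = 1.0e-06), Cdc20 (1.52 ± 0.24, adjusted p = 4.5e-06) and Cenpe (1.04 ± 0.26, adjusted p = 9.9e-04) on the basal side and Cenpf (-0.91 ± 0.26), Cdca3 (-0.78 ± 0.21) and Cks1b (-0.62 ± 0.17) on the superficial-marker side. With DESeq2, Cdc20 was at 0.71 (adjusted p = 0.194) and Cenpe at 0.12 (adjusted p = 0.861). Just 1 member was higher and 1 was lower in all 6 libraries, where 23.9% and 15.9% of all genes were, and leaving out 1 library moved the basal count between 6 (without acute replicate 1) and 22 (without chronic replicate 1). Counted by cells, at least 5 members were found after thinning in 64.7% and 33.9% of acute and 31.5% and 27.6% of chronic cycling basal cells. In cycling intermediate cells the shares were 28.9% and 17.1% after acute and 3.96% and 7.50% after chronic injury. Most intermediate cells called cycling thus fell short of this count, in every library. Basal cells called cycling mostly fell short too, in every library but acute replicate 1. So did superficial-marker cells called cycling in both healthy libraries and in chronic replicate 1. The part of this shortfall in the differences between the classes was not tested. In cycling superficial-marker cells the acute shares were 73.4% and 135 of 250 cells and the chronic shares 42.6% and 52.1%, and the superficial-marker share was above the basal one in 6 of 6 libraries. The basal and superficial-marker shares run against the CPM sums of the acute libraries, so no order of these classes is read from them.

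At a stricter threshold of 4 MADs, which keeps strongly cycling cells, the basal sum was above the superficial-marker sum in all 4 injured libraries. The threshold left 60 to 634 basal, 46 to 238 intermediate and 90 to 390 superficial-marker cells per library, the last in the 4 injured libraries only, since each healthy library had 10 such cells. The 52 genes then summed to 9400 and 1548 CPM in healthy, 8686 and 10170 in acute and 5606 and 6383 in chronic basal cells. Superficial-marker cells had 4337 and 4227 after acute and 3960 and 3962 after chronic injury. The basal sum was 2.00 and 2.41 times the superficial-marker sum in the acute and 1.42 and 1.61 times in the chronic libraries, where at 2 MADs it had been 1.84 and 1.54, and 0.825 and 0.796 times. The threshold kept a smaller part of the basal than of the superficial-marker cells called at 2 MADs, with 634 of 876 and 154 of 412 against 390 of 485 and 166 of 256 in the acute, and 82 of 292 and 60 of 215 against 140 of 288 and 90 of 144 in the chronic libraries, and the part of this in the ratios was not tested. Of the 52 genes 39 were higher in basal cells and none in superficial-marker cells by edgeR (24.3% and 23.8% of 8926 genes), and 37 were higher in all 4 libraries, against 29.5% of genes. This fit differs from that at 2 MADs both in the threshold and in leaving out the healthy superficial-marker libraries, and the part of each in the higher count was not tested. The median log2 difference was 0.87, against 0.0002 over all genes tested. Cells entered by a high S or a high G2/M score, and which score brought in the cells of each class was not tested. The calls at 4 MADs, by gene and by role, therefore hold for cells picked in this way. They come from edgeR alone. DESeq2, stricter cells, clusters without integration and fits without 1 library were not run at 4 MADs. At 2 MADs DESeq2 had turned the sign of the median basal over superficial-marker difference.

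By role, the median log2 difference was 1.27 for cytokinesis, 1.08 for exit, 0.86 for spindle and kinetochore, 0.85 for chromosome, 0.81 for entry and 0.40 for passenger genes. The roles were not tested against each other. In CPM, the 8 cytokinesis genes summed to 538 and 695 in acute and 320 and 361 in chronic basal cells, and to 188 and 216, and 191 and 173 in superficial-marker cells. Cdc20 stood at 167 and 154 CPM in acute and 151 and 106 in chronic basal cells, against 31.3 and 22.3, and 33.1 and 25.6 in superficial-marker cells (2.23 ± 0.18, adjusted p = 9.5e-13). Anln stood at 84.2 and 56.5, and 21.6 and 30.7, against 13.4 and 7.58, and 13.1 and 13.2 (2.22 ± 0.22, adjusted p = 2.2e-10). Prc1 stood at 160 and 280, and 97.2 and 140, against 47.8 and 64.8, and 37.4 and 44.6 (1.66 ± 0.14, adjusted p = 1.1e-12). In each of these 3 genes every injured basal library lay above every superficial-marker library. Ect2 (1.46), Ccnb1 (1.29), the B-type cyclin of mitotic entry, Kif23 (1.28), Mki67 (1.13), Top2a (0.85) and Racgap1 (0.78) also passed.

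Other members differed less. Cdk1 stood at 137 and 142, and 140 and 95.4 CPM in basal and 82.2 and 74.9, and 77.5 and 93.4 in superficial-marker cells (0.50 ± 0.18, adjusted p = 0.0196). Cks1b differed by 0.11 ± 0.15, Birc5 by 0.28 ± 0.17, Aurkb by 0.34 ± 0.18, Bub1, a kinase of the spindle checkpoint, by 0.34 ± 0.27, Spc24 by 0.09 ± 0.17, Cdca3 by -0.01 ± 0.16 and Cenpf by 0.00 ± 0.22, and none of these passed. Cenpf stood at 230 and 417, and 158 and 184 in basal and 169 and 168, and 232 and 372 in superficial-marker cells, so that basal cells were higher in the acute and superficial-marker cells in the chronic libraries. Kif20a (0.52) and Kif4 (0.49) were the cytokinesis genes that did not pass.

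**Figure D4:**
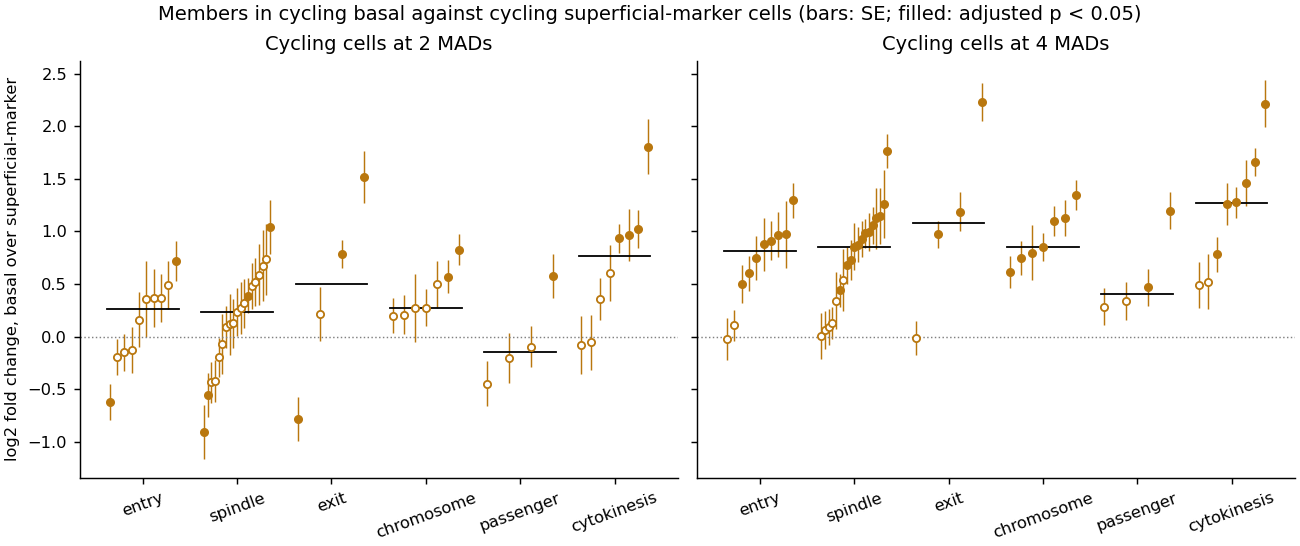
Log2 difference (basal over superficial-marker) of the 52 genes by role in cells called cycling at 2 MADs (left) and 4 MADs (right), with bars of 1 SE, filled points for an adjusted p below 0.05 (edgeR) and a black line at the median of the role. At 4 MADs Cdc20 (2.23, exit), Anln (2.22, cytokinesis) and Cenpe (1.77, spindle) lie farthest up, and no gene is called below 0.

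The replication genes are those of the S score by which cells were called cycling, so their levels are set in part by the choice of cells. The same holds for the 19 G2/M score genes that are no members, of which 14 were higher in basal than in superficial-marker cells at 4 MADs and none lower, with a median of 0.67. The sum of the replication genes was 2191 and 2115 CPM in acute and 2153 and 1887 in chronic basal cells, and 2149 and 2263, and 2260 and 2345 in superficial-marker cells at 4 MADs. Of 42 tested, 2 were higher in basal and 11 in superficial-marker cells, where 24.3% and 23.8% of all genes were, with a median of -0.17. Per UMI of the replication genes, basal cells held 3.96 and 4.81 UMIs of the 52 genes after acute and 2.60 and 3.38 after chronic injury, against 2.02 and 1.87, and 1.75 and 1.69 in superficial-marker cells. The 4 superficial-marker values lay below the 4 injured basal ones. Healthy basal libraries had 6.05 and 0.825, so that the ratio was not stable in health. Since the replication genes chose the cells, the ratio holds for cells picked in this way only and is given as a description.

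**Figure D5:**
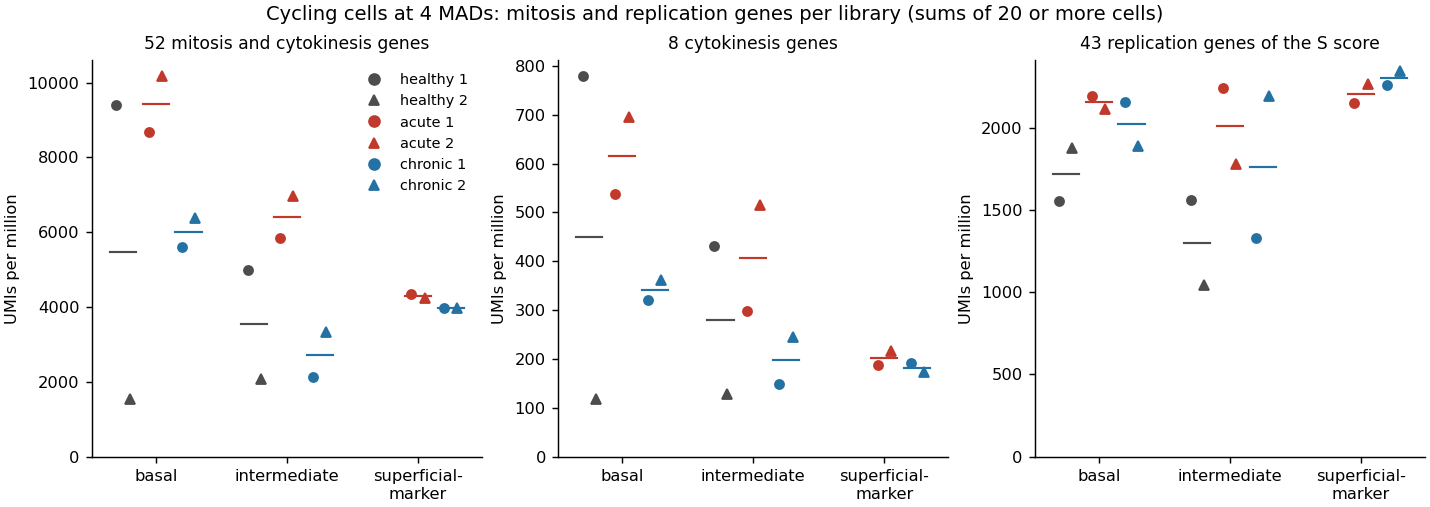
CPM of the 52 genes, of the 8 cytokinesis genes and of the 43 replication genes in cells called cycling at 4 MADs, by class, with 1 point per library and a line at the mean of the libraries of a condition. Injured basal libraries lie at 5606 to 10170 and superficial-marker libraries at 3960 to 4337 for the 52 genes, while the replication genes lie at 1887 to 2191 and 2149 to 2345.

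The excess of superficial-marker over intermediate cells was not seen at 4 MADs, in a fit that also lacks the healthy superficial-marker libraries. At 4 MADs 3 of the 52 genes were higher in superficial-marker cells and 11 were lower (13.9% and 14.8% of all genes, median -0.15), where 46 had been higher and 1 lower at 2 MADs. The lower ones included Anln (-1.35), Cdc20 (-1.17), Prc1 (-0.87), Ect2 (-0.83) and Kif23 (-0.73), 4 of the 8 cytokinesis genes among them. In all 4 injured libraries 1 member was higher and 6 were lower, against 1446 and 1954 of all 8926 genes. Neither count stood above the share over all genes. In intermediate cells at 4 MADs the 52 genes summed to 4997 and 2074, 5854 and 6979, and 2132 and 3321 CPM. Cells kept at 4 MADs made up a smaller part of the intermediate than of the superficial-marker cells called at 2 MADs, with 149 of 467 and 89 of 373 against 390 of 485 and 166 of 256 in the acute libraries. Basal cells were still above intermediate cells in 30 genes with none lower (6.24% and 7.56% of genes, median 0.64), although 13 (and 759 of all 8926 genes) were higher in all 6 libraries and the healthy replicate 2 sum was lower in basal than in intermediate cells.

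Within cycling cells, the acute change of several members differed between superficial-marker cells and the other urothelial classes. In cycling cells at 2 MADs edgeR called 0 members after acute injury in any class, where 0.0407% of all genes were called higher in basal, 0.00979% in intermediate, 0.00998% in superficial-marker and 0.0% in mesenchymal cells. The median changes were 1.58 in basal (43 of 52 without overlap, against 19.5% of genes) and 1.87 in intermediate cells (45 of 48, against 18.4%). In superficial-marker cells the median was 0.07. There 8 of 52 were higher and 2 lower without overlap, against 23.2% of genes higher and 1497 of 10017 lower. The median in mesenchymal cells was 0.78. At an unadjusted p below 0.05 there were 31, 38, 5 and 11 members, against 688, 538, 729 and 244 of all genes tested, and DESeq2 called 4, 10, 1 and 0 members, against 0.539%, 0.333%, 0.12% and 0.138% of genes higher. The basal count was 38 without healthy replicate 1, and the remaining healthy library was then assumed to vary like the other groups. Tested as a difference of changes, the acute change of 10 members was lower in cycling superficial-marker than in cycling intermediate cells (0.128% of 10964 genes) and that of 8 was lower than in cycling basal cells (0.146%). Cdc20 differed by -2.66 ± 0.47 and 2.88 ± 0.44 (superficial-marker minus intermediate and basal minus superficial-marker, adjusted p = 0.0060 and 8.7e-04), in libraries where cycling superficial-marker cells had 60.4 and 21.8 CPM in health, 27.1 and 17.2 after acute and 21.3 and 18.5 after chronic injury. Cycling basal cells had 49.1 and 6.81, 133 and 73.5, and 46.5 and 34.4. The healthy superficial-marker values rest on 26 and 42 cells, and these counts fell to 1 and 1 with clusters made without integration. They were 5 and 17 without healthy replicate 1, and 8 and 4 without healthy replicate 2.

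In all cells of a class, 1 member changed differently between classes. Spc24 rose more in superficial-marker than in basal cells, by 2.23 ± 0.47 after acute and by 2.67 ± 0.51 after chronic injury on the log2 scale (adjusted p = 0.038 and 0.022, where 0.209% and 0.131% of genes were called in this direction). In basal cells it stood at 9.27 and 3.19 CPM in health, 54.8 and 18.3 after acute and 13.8 and 11.2 after chronic injury. In both classes all injured libraries were above both healthy ones, and the basal values after chronic injury were close to the higher healthy one. Neither difference was called with clusters made without integration or without healthy replicate 1, the acute one was also lost without acute replicate 2 and the chronic one without chronic replicate 2, and 8 members were called for the chronic difference without healthy replicate 2.

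Other genes of the same programme were read from a list of 62 further mitosis genes. In acute superficial-marker cells 14 of 57 tested were higher than in health, where 0.963% of all genes were, and none lower, with a median log2 change of 2.19. Esco2, which acetylates cohesin, had the largest change (4.67 ± 0.37, adjusted p = 0.0050), then Kif15, a spindle motor (3.46 ± 0.63, adjusted p = 0.047), and Nek2, a centrosome kinase (3.27 ± 0.60, adjusted p = 0.047). Esco2 was also the 1 gene called over all urothelial cells after acute injury (4.84 ± 0.36, adjusted p = 0.036), and it passed after chronic injury in superficial-marker cells (3.66 ± 0.39, adjusted p = 0.049). Of these calls, that of Esco2 in acute superficial-marker cells was lost in 1 fit, without healthy replicate 1 (adjusted p = 0.106). The calls of Kif15 and Nek2 were lost in 5 and 4 of the alternative settings with all libraries (adjusted p = 0.052 to 0.20), and each in 5 of 6 fits that left out a library, all but that without acute replicate 2. The calls of Esco2 over all urothelial cells and after chronic injury were lost in 3 and 5 such settings (adjusted p = 0.054 to 0.26), and in all fits without a healthy or a chronic library. Between basal and superficial-marker cells at 4 MADs 30 of 57 were higher and 1 lower in basal cells (24.3% and 23.8% of all genes), with a median of 0.51, and 7 of the 62 (Cdca2, Ckap2, Ckap2l, Dlgap5, Hjurp, Nek2 and Psrc1) are among the G2/M score genes that chose the cells. Over all cells of these classes the largest basal excess was that of Aspm, which focuses spindle poles (1.62 ± 0.23, adjusted p = 5.4e-06), then Fam83d (1.45 ± 0.29) and Depdc1a (1.30 ± 0.28), and the largest superficial-marker excess that of Oip5, which loads Cenpa onto centromeres (-1.85 ± 0.33, adjusted p = 5.8e-05), then Cdca5, which protects cohesion (-1.01 ± 0.25), and Cenph, of the kinetochore (-0.997 ± 0.20).

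Of 17 regulators of these genes 9 were higher in basal and 11 in superficial-marker than in intermediate cells (22.8% and 25.6% of all genes) and none lower, and between basal and superficial-marker cells 1 was higher in basal and 3 in superficial-marker cells (33.2% and 30.6%). E2f1, the activator of S-phase genes, was higher in superficial-marker than in basal cells (basal minus superficial-marker -1.37 ± 0.25, adjusted p = 7.6e-05). Foxm1, which with B-Myb and MuvB activates CHR promoters, was higher than in intermediate cells in both basal (1.59 ± 0.24) and superficial-marker cells (2.03 ± 0.22), and its difference between these (-0.43 ± 0.22) did not pass (adjusted p = 0.094). E2f7, a repressor of E2F targets, stood 2.90 ± 0.39 higher in basal and 2.17 ± 0.42 higher in superficial-marker than in intermediate cells.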

How the data were processed

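Reads had been assigned to cells and genes by the authors with Cell Ranger on mm10, per the submitters' processing notes, and raw UMI counts without normalization were deposited, 1 table for each of the 6 libraries. The table of healthy replicate 1 breaks off in its last line, which was left out, so genes were limited to the 14450 listed in all tables. Mitochondrial (13) and ribosomal (86) genes were removed, leaving 14351. Cells entered with more than 500 genes and a mitochondrial share below 10%. Doublets (Scrublet in scanpy 1.11.5) were taken as the top-scoring 0.8% per 1000 cells and left out. A cluster of 2405 cells with mesenchymal markers, of which 36.5% were called doublets, was also left out. Of its cells 1745 came from acute replicate 2. Libraries were normalized with sctransform 0.4.2, integrated with Seurat 5.3.0 (R 4.3.3) and clustered with leidenalg 0.10.2 (Python 3.11.15). Cell scores used 100 control genes from 24 bins, 43 S genes and 19 G2/M genes that are no members, since 35 members stand in the full G2/M list. Sub-clusters with a mean marker z score above 1 were taken as superficial.

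Counts of all cells of a class in 1 library were added up where there were 20 or more, and the library was the replicate. Sums were compared with edgeR 4.0.16 (TMM, filterByExpr, quasi-likelihood test, Benjamini-Hochberg over all genes tested, called below 0.05), with the library as a block between classes. The script was tested on simulated data. Alternatives were DESeq2 1.42.0, no TMM factors, no filter on low counts, stricter cells (over 1000 genes, under 5% mitochondrial UMIs), doublets kept, genes of any table, clusters without integration, other cycling calls (4 MADs, full score lists, S score alone), the replicate number as a block and each library left out. Calling cells with the full score lists at 4 MADs, and module levels at 4 MADs, were added after the data were seen. Total UMIs per library (54604109 to 111985678) and cells per class limit the precision. Counts carry molecular identifiers, and intervals and low counts cover counting error only.

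The 52 members and all lists were chosen with earlier results of these data known. Values in every library are given for a list of 24 members where they carry a comparison, and for the 3 largest rises and falls among called members of each main comparison, likewise for other mitosis genes. Other genes named here (Spc25, Kif4, Gtse1, Knstrn, Mad2l1, Nuf2, Tacc3, E2f1, E2f7, Foxm1 and the members listed as not passing) were chosen after their values were seen.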

Additional observations from a re-analysis of the deposited data

Results flagged for a closer look

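Differences between classes in the response to injury were flagged where the test of the difference itself passed (edgeR, adjusted p below 0.05), with log2 values throughout and no explanation weighed. In all cells of a class, the change of Spc24 in basal minus superficial-marker cells was -2.23 after acute and -2.67 after chronic injury, relative to health.

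Among cycling cells, the acute change in superficial-marker minus intermediate cells was -3.30 for Cenpe, -2.84 for Hmmr, which binds spindle poles, -2.66 for Cdc20, -2.47 for Ube2c, -2.06 for Cdca3, -1.93 for Ccnb2, -1.90 for Birc5, -1.75 for Knstrn, -1.74 for Cenpf and -1.36 for Cks2. In basal minus superficial-marker cells the acute change was 3.22 for Cenpe, 2.88 for Cdc20, 2.34 for Hmmr, 2.09 for Cenpf, 2.02 for Ccnb1, 1.92 for Ube2c, 1.54 for Birc5 and 1.51 for Cks2, and the chronic change was 2.36 for Cenpe. For this chronic difference 0 members were called with DESeq2, stricter cells, clusters made without integration, and without healthy replicate 2, chronic replicate 1 or chronic replicate 2, and 2 without healthy replicate 1. These values share the 26 and 42 cycling superficial-marker cells of the healthy libraries, so they are not independent of each other.

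Acute against chronic, in the fit over all libraries, the difference in basal minus superficial-marker cycling cells was 2.32 for Anln, 2.31 for Cenpf, 1.83 for Ccnb2, 1.80 for Ccna2, the cyclin of S phase and early mitosis, and 1.41 for Birc5. With clusters made without integration 1 member was called in this comparison, and leaving out 1 library moved the count between 1 (without chronic replicate 2) and 13 (without healthy replicate 1).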

How the results depend on the processing

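Counts of members called, by contrast and direction, were set against their values under the alternatives that kept all libraries. They moved by more than 1.5 times in 56 of these checks and by less in 769. Module levels moved beyond 1 SD in 20 checks and by less in 68. Several checks can come from 1 fit, so they are not independent of each other. DESeq2 called 43 members higher over all urothelial cells after acute, 2 after chronic injury and 10 in acute over chronic, 11 in acute basal, 14 in acute intermediate, 12 in chronic superficial-marker and 1 in acute over chronic superficial-marker cells. Among cycling cells it called 4 in acute basal, 10 in acute intermediate, 10 in acute over chronic intermediate, 1 in acute superficial-marker cells and 5 in basal over superficial-marker cells. For differences of changes it called 4 (acute) and 1 (chronic) in superficial-marker minus intermediate cells, and 0 (chronic) and 1 (acute minus chronic) in cycling basal minus superficial-marker cells. Some of these DESeq2 counts have no share of all genes given above, as the 2 and 10 over all urothelial cells. Counts from the other alternative settings, and from fits without 1 library, also stand without such a share, here and in the sections above. Counts without a share show only how far the number of members called moved. They are not read as results about the members. Without integration 8 members were higher in acute superficial-marker cells, and the differences of changes gave 0 and 0 (Spc24) in all cells and 1, 1, 0 and 1 in cycling cells. Without a filter on low counts 1 member was higher in chronic superficial-marker cells, 7 in superficial-marker over basal cycling cells, and 5, 7, 5, 1 and 1 in cycling basal (acute), intermediate (acute, and acute over chronic) and superficial-marker cells (acute, chronic). That setting gave 1, 17, 19, 2 and 22 members for the differences of changes, and 1 member lower in superficial-marker than in intermediate cells, as did library sizes without TMM factors. With stricter cells basal over superficial-marker cycling cells had 20 members higher, and the differences of changes gave 2, 3, 6, 4 and 0.

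At 4 MADs, with scores free of members and with the full score lists, basal over intermediate cycling cells had 30 and 27 members higher, superficial-marker over intermediate 3 and 2 higher and 11 and 12 lower, and basal over superficial-marker 39 and 39 higher and 0 and 0 lower. With the S score alone the last comparison had 27 higher and 2 lower, and acute cycling intermediate cells 5 higher. Reversed were Cenpf (0.0043 and 0.0304) and Cks1b (0.107 and 0.106) in basal over superficial-marker cells at 4 MADs, and Cdca2 (0.0788) in superficial-marker over intermediate cells with the S score alone. The causes were not tested. Mean module levels at 4 MADs were 5474, 9428 and 5994 CPM in basal (healthy, acute, chronic), 3535, 6416 and 2727 in intermediate, 4282 and 3961 in injured superficial-marker, and 4196 and 5691 in healthy and acute mesenchymal cells. With doublets kept, and the cluster rich in them counted as mesenchymal, mesenchymal cells had 1243 (acute) and 722 (chronic), and cycling ones 2890 and 1525. The part of each change in these shifts was not tested. Stricter cells gave 606 in chronic mesenchymal and 2349 in acute cycling mesenchymal cells, and clusters without integration gave 578 in healthy superficial-marker, 669 in chronic mesenchymal and 2542 and 1329 in acute and chronic cycling mesenchymal cells.

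Leaving out 1 library, with a lone library assumed to vary like the other groups, moved the acute count in superficial-marker cells between 0 and 32 (0 without healthy replicate 1, 2 without healthy replicate 2, 10 without chronic replicate 2, 13 without chronic replicate 1), over all urothelial cells between 0 and 16, and in superficial-marker cells after chronic injury between 0 and 5. Members lower in superficial-marker than in intermediate cells ranged from 0 to 1. Those lower in basal than in superficial-marker cells ranged from 2 to 8 in all and from 2 to 10 in cycling cells, and those higher from 6 to 22 in cycling cells. Acute counts ranged from 0 to 38 in cycling basal, 0 to 4 in cycling intermediate and 0 to 1 in cycling superficial-marker cells, and acute over chronic from 0 to 1 in cycling intermediate cells. Differences of changes in basal minus superficial-marker cells ranged from 0 to 1 (acute), 0 to 8 (chronic) and 0 to 1 (acute minus chronic) in all cells and from 4 to 17, 0 to 2 and 1 to 13 in cycling cells, and those in superficial-marker minus intermediate cycling cells from 5 to 11.

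Deviations of same-numbered libraries correlated at 0.236 (healthy and acute), -0.365 (healthy and chronic) and -0.179 (acute and chronic), so replicate numbers were not used as pairs in the main fits. Only same-numbered libraries were compared in this way. The paper states that its samples were handled and sequenced in batches. Which libraries shared a batch was not known here, and the part of batches in the differences between conditions was not tested. With the replicate block 18 members were called in acute superficial-marker cells. Differences of changes at 4 MADs could not be fitted, with 10 healthy superficial-marker cells in each library.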

Other observations

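The 52 genes were also read in the smaller classes, which enter no comparison because of their few cells. The mean summed level was 937 CPM in healthy, 635 in acute and 1195 in chronic macrophages. It was 2609 in healthy cells with NK cell markers, where 26.3% (95% Wilson interval 14.97% to 42.0%) and 9.09% (2.53% to 27.8%) of 38 and 22 cells passed the count of 5 members after thinning. Endothelial cells had 2101 after acute and 1277 after chronic injury, and 1234 in the 1 healthy library with at least 20 of them. The cells with NK cell markers had the highest healthy mean of these 3 classes, from 53 and 43 cells.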
